A study of Oryza sativa with 12 samples.

Results

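The enzymes that make and inactivate the hormone abscisic acid were followed across 4 groups of rice (Oryza sativa) roots. The members were the unigenes, which are clusters of assembled transcripts, whose best NCBI protein hit was from Oryza and whose description in that database or in Swiss-Prot named 1 of 4 enzymes: zeaxanthin epoxidase, 9-cis-epoxycarotenoid dioxygenase (NCED), abscisic-aldehyde oxidase or abscisic acid 8'-hydroxylase. This took 30 of 182689 unigenes: 2 for zeaxanthin epoxidase, 12 for NCED, 16 for the 8'-hydroxylase and 0 for abscisic-aldehyde oxidase. Another 10 unigenes carried the same words but had their best hit outside Oryza, and were not members. The rule reads only these descriptions, but the enzymes were picked with earlier results of these data known.

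Poly-A RNA of wild-type roots was sequenced in 12 libraries, 3 in each group. The first group received 0.1 mM spermidine together with 100 mM NaCl, the second 100 mM NaCl and the third 0.1 mM spermidine, each for 72 hours. The last group was untreated, and the labels give no time for it. Spermidine, a polyamine, is a small cation that plants also make, and the title of the series asks whether it helps rice roots withstand salt. Whether the numbered libraries of a group are separate cultures is not stated in the labels. The p-values therefore speak only of the spread among these samples, part of which may be technical.

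Plants make abscisic acid from carotenoids: zeaxanthin epoxidase makes violaxanthin, NCED cleaves the epoxycarotenoids made from it to xanthoxin, and a short-chain dehydrogenase and abscisic-aldehyde oxidase finish the synthesis. The NCED cleavage is widely taken as the rate-limiting step. The 8'-hydroxylases, cytochromes P450 of the CYP707A family, start the breakdown of the hormone to phaseic acid. In roots, abscisic acid is known for its part in the response to salt and drought.

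Levels are given in FPKM, fragments per kilobase corrected for the size of each library, so they can be set side by side between unigenes of different length. Changes are differences of log2(FPKM + 1) with their SE, from limma with Benjamini-Hochberg adjustment over all 65836 unigenes averaging 1 FPKM or more across the 12 libraries, and a unigene was called at an adjusted p below 0.05. On this scale the changes of low unigenes come out too small. Errors of levels are SD over 3 libraries. All comparisons draw on the same 12 libraries, so comparisons that share a group are not independent of each other.

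Of the 30 members, 21 had a mean of at least 1 FPKM and 9 did not. The lowest inside were an OsNCED3 unigene at 1.15 FPKM and an OsABA8ox1 unigene at 1.23 FPKM, and the highest outside were OsNCED5 unigenes at 0.985 and 0.916 FPKM. The 9 outside had no single value above 3.1 FPKM; they were 4 of the 5 OsNCED5 unigenes, both OsABA8ox3 unigenes and the 3 with the Arabidopsis CYP707A3 as Swiss-Prot hit. Without the filter, limma called 0 of these 9 in any comparison, with 0 to 1 at an unadjusted p below 0.05 in each and a lowest adjusted p of 0.097. The same fit called 16950 of 182689 unigenes with NaCl against untreated roots and 4662 to 9779 in each of the others, so a count of 0 does not set these 9 apart. The OsNCED3 and OsNCED4 unigenes passed the filter only through the NaCl libraries. Their group means were 3.97 to 23.3 FPKM with NaCl and 0 to 0.833 FPKM in the other groups. The OsABA8ox1 unigene at 1.23 FPKM also passed only through the NaCl libraries, as the mean of the other libraries lay below the filter. Its group means were 2.49 FPKM with NaCl, 1.45 with spermidine+NaCl, 0.573 with spermidine and 0.387 in untreated roots. Comparisons of these unigenes with the NaCl group, and counts or medians of members that include them, are therefore not independent of the filter.

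Members are named here by their Swiss-Prot hit, with a letter in falling order of mean level where several share a hit. Unigenes with the same hit can be pieces or versions of 1 gene and can share reads, so their values are uncertain and they are not independent of each other. RefSeq (assembly ASM3414082v1, used for names only) lists OsZEP1, OsNCED3, OsABA8ox1, OsABA8ox2 and OsABA8ox3 as gene synonyms. Of the 16 hydroxylase members, 9 carried the KEGG term for abscisic acid 8'-hydroxylase. The other 7 carried a term for cytochrome P450 family 26 subfamily A; these were the 6 whose Swiss-Prot hit was an Arabidopsis CYP707A protein and 1 OsABA8ox3 unigene. Whether these 7 are abscisic acid 8'-hydroxylases was not settled here.

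The tissue label was checked against marker genes. Root markers were present (21 of 22 at a mean of at least 1 FPKM), and their summed level was 6854 to 11416 FPKM with spermidine+NaCl, 5280 to 5636 FPKM with NaCl, 9536 to 10371 FPKM with spermidine and 8659 to 12557 FPKM in untreated roots. With NaCl against untreated roots 0 of the 21 were called higher and 8 lower, and with spermidine+NaCl against NaCl 6 higher and 0 lower. Over all unigenes tested, 10% were called higher and 12.9% lower in the first comparison, and 8.63% higher and 7.18% lower in the second. With Oryza hits only, these shares were 13.4% and 17.0%, and 13.2% and 9.63%. Of 30 shoot markers, 15 reached that mean, and 1 was called higher and 0 lower with NaCl against untreated roots, and 0 higher and 1 lower with spermidine+NaCl against NaCl. Their median changes were 0.85 and -0.91. All 30 together summed to 21.8 to 31.7, 19.9 to 238, 17.6 to 134 and 24.2 to 26.2 FPKM in the same order of groups, with the highest sums in NaCl replicate 3 and spermidine replicate 1, and 0 to 15 of the 30 were listed at 0 in a library. The first principal component (48.2% of the variance of unigenes with an Oryza hit) placed the NaCl libraries at 117 to 135 and spermidine+NaCl replicate 1 at 17.7. The other spermidine+NaCl libraries were at -45.7 and -36.4, and the spermidine and untreated libraries between -66.7 and -28.2. The called changes with spermidine+NaCl against NaCl, and the sums and shares that replicate 1 moved most, are therefore also given without it. The part of these differences between libraries in the results was not tested, and in bulk RNA fewer cells of a type and less RNA per cell cannot be told apart.

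With NaCl against untreated roots, 11 of the 30 members (21 tested) were called higher and 1 lower, and 14 had an unadjusted p below 0.05. Of all unigenes tested, 22.9% were called, 10% higher and 12.9% lower. With spermidine+NaCl against NaCl, 1 of the 30 (21 tested) was called higher and 8 lower, against 15.8% of all unigenes tested, 8.63% higher and 7.18% lower. When only the 41491 tested unigenes with an Oryza hit were fitted, 30.4% of them were called in the first of these comparisons (13.4% higher) and 22.8% in the second (9.63% lower). Without NaCl replicate 3, whose shoot markers summed highest, 11 members were called with NaCl against untreated roots and 7 with spermidine+NaCl against NaCl. That fit called 12126 and 6947 of all 65836 unigenes tested. The median change of the 21 tested members was 1.09 and -0.88 in these comparisons, beside -0.129 and 0.136 over all unigenes. The medians of the members include OsABA8ox1-e and the OsNCED3 and OsNCED4 unigenes, which passed the filter only through NaCl. Scaling the libraries by median ratios moved the medians over all unigenes to -0.021 and 0, and moved the share of calls that were higher to 57.2% (43.7% as deposited) for NaCl against untreated roots and to 33.0% (54.6%) for spermidine+NaCl against NaCl.

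Zeaxanthin epoxidase, the first of these enzymes in the pathway, was modestly higher with NaCl. OsZEP1 (Cluster-52034.82543) had 7.29, 8.61 and 7.24 FPKM with NaCl, against 6.02, 5.86 and 5.24 FPKM in untreated roots. It had 6.42, 7.23 and 6.26 FPKM with spermidine+NaCl and 5.64, 4.96 and 5.76 FPKM with spermidine. Every NaCl library was above every other library, by a small margin over spermidine+NaCl.

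The change of OsZEP1 with NaCl against untreated roots was 0.38 ± 0.11 (limma, adjusted p = 0.0318). It missed the threshold under 7 of 20 alternative settings, with adjusted p of 0.0511 to 0.0958, among them leaving out NaCl replicate 1 or 2 or untreated replicate 2 or 3. The second epoxidase unigene, ZEP-like (Cluster-52034.99581), has a Prunus protein as Swiss-Prot hit but shares its TrEMBL hit with OsZEP1. It had 3.9, 4.25 and 4.92 FPKM with NaCl, against 0.93, 1.53 and 2.23 FPKM in untreated roots. Its levels were 1.63, 1.7 and 2.44 FPKM with spermidine+NaCl and 0.26, 1.43 and 0.72 FPKM with spermidine.

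The NaCl libraries of ZEP-like did not overlap those of any other group. Its change with NaCl against untreated roots was 1.09 ± 0.27 (limma, adjusted p = 0.0146), a call that was lost without NaCl replicate 3 (adjusted p = 0.0558), without untreated replicate 1 (0.0568) and with a pseudocount of 0.1 FPKM (0.0546). Its change with spermidine+NaCl against NaCl, -0.88 ± 0.27, was not called (adjusted p = 0.0513).

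OsNCED4, described as 9-cis-epoxycarotenoid dioxygenase NCED4, chloroplastic, showed the largest changes of the 21 tested members in both of these comparisons. Outside the NaCl group, its 2 unigenes had no value above 1.34 FPKM. OsNCED4-a (Cluster-52034.98112) had 1.08, 0.14 and 0.14 FPKM with spermidine+NaCl, 27.95, 17.34 and 24.69 FPKM with NaCl, 1.34, 0.54 and 0 FPKM with spermidine and 0, 0.15 and 0 FPKM in untreated roots. OsNCED4-b (Cluster-52034.40768) had 0.38, 0.12 and 0.04 FPKM with spermidine+NaCl, 25.24, 22.94 and 21.84 FPKM with NaCl, 1.07, 0.38 and 0.03 FPKM with spermidine and 0.06, 0.07 and 0.33 FPKM in untreated roots.

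For both unigenes the 3 NaCl libraries stood above the other 9 with no overlap. Within the spermidine+NaCl group and within the spermidine group, replicate 1 was the highest. With NaCl against untreated roots, OsNCED4-a changed by 4.51 ± 0.34 (limma, adjusted p = 1.48e-05) and OsNCED4-b by 4.41 ± 0.25 (adjusted p = 3.86e-06). The changes with spermidine+NaCl against NaCl were -4.10 ± 0.34 (adjusted p = 4.46e-05) and -4.37 ± 0.25 (adjusted p = 7.1e-06). They were -4.39 and -4.49 without spermidine+NaCl replicate 1, both called.

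OsNCED3, another NCED gene, moved the same way at a lower level. OsNCED3-a (Cluster-52034.139) had 1.73, 0.25 and 0.52 FPKM with spermidine+NaCl, 4.14, 6.08 and 4.58 FPKM with NaCl, 1.2, 0.5 and 0 FPKM with spermidine and 0.72, 0.27 and 0.53 FPKM in untreated roots. OsNCED3-b (Cluster-52034.97605) had 1.43, 0.42 and 0.2 FPKM with spermidine+NaCl, 4.62, 4.51 and 4.84 FPKM with NaCl, 0.63, 0.89 and 0.73 FPKM with spermidine and 0.56, 0.51 and 0.14 FPKM in untreated roots. OsNCED3-c (Cluster-52034.13446) had 0.36, 0.72 and 0.76 FPKM with spermidine+NaCl and 3.37, 4.26 and 4.27 FPKM with NaCl, and was listed at 0 in all 6 libraries of the spermidine and untreated groups.

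The NaCl libraries of these 3 unigenes lay above all others, with no overlap. With NaCl against untreated roots, OsNCED3-a changed by 1.98 ± 0.36 (limma, adjusted p = 0.00289) and OsNCED3-b by 2.02 ± 0.27 (adjusted p = 0.000482). OsNCED3-c was called higher as well (adjusted p = 0.000118), and no fold is given against values of 0. All 3 were called lower with spermidine+NaCl against NaCl, OsNCED3-a by a change of -1.76 ± 0.36 (adjusted p = 0.00834), OsNCED3-b of -1.82 ± 0.27 (adjusted p = 0.00153) and OsNCED3-c of -1.63 ± 0.25 (adjusted p = 0.00166). The call of OsNCED3-a was lost with a pseudocount of 0.1 FPKM (adjusted p = 0.0634). Leaving out spermidine+NaCl replicate 1 gave -2.09, -2.12 and -1.51, all called.

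OsNCED1 gave a different picture from OsNCED3 and OsNCED4, with levels close together in every group. OsNCED1-a (Cluster-52034.29893) averaged 4.06 ± 0.391 FPKM with spermidine+NaCl, 3.69 ± 0.588 with NaCl, 4.01 ± 0.71 with spermidine and 3.86 ± 1.21 in untreated roots. OsNCED1-b (Cluster-52034.19016) averaged 2.73 ± 0.0611, 2.71 ± 0.358, 2.51 ± 0.789 and 2.56 ± 1.08 FPKM in the same order. For both unigenes every pair of groups overlapped and no comparison was called. The change with NaCl against untreated roots was -0.02 ± 0.20 for OsNCED1-a (limma, adjusted p = 0.994) and 0.10 ± 0.23 for OsNCED1-b (adjusted p = 0.836).

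OsNCED5-a (Cluster-52034.14190), the only OsNCED5 unigene above the filter, varied widely within groups. It had 0, 1.45 and 0 FPKM with spermidine+NaCl, 0, 6.3 and 3.2 FPKM with NaCl, 0, 1.62 and 3.13 FPKM with spermidine and 3.12, 3.16 and 0 FPKM in untreated roots. At least 1 library of each group was listed at 0, all groups overlapped and no comparison was called. Summed over its 5 unigenes, OsNCED5 had 3.94 ± 0.322 FPKM with spermidine+NaCl, 6.83 ± 2.63 FPKM with NaCl, 4.69 ± 0.897 FPKM with spermidine and 4.29 ± 1.22 FPKM in untreated roots.

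**Figure D1:**
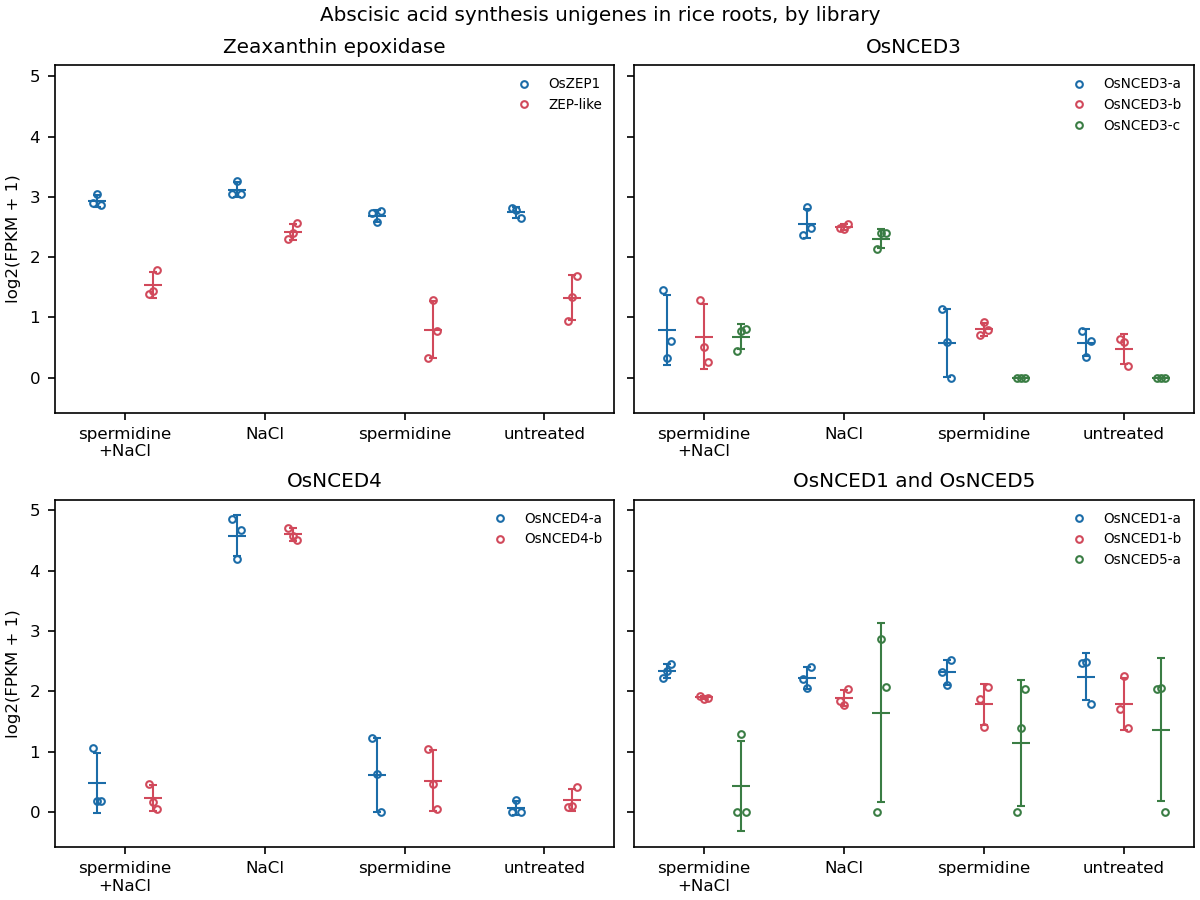
log2(FPKM + 1) of the zeaxanthin epoxidase and NCED unigenes in each library, by group; points are libraries, and the dash with its bar is the mean ± SD of 3 libraries on that scale. The 3 NaCl libraries of OsNCED3 and OsNCED4 lie above the other 9 libraries, while the 4 groups of OsNCED1 overlap.

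Abscisic acid 8'-hydroxylase 1 (OsABA8ox1) held most of the summed hydroxylase level with NaCl and all the hydroxylase members called higher with it. OsABA8ox1-a (Cluster-52034.92113) had 90.76, 38.09 and 35.83 FPKM with spermidine+NaCl, 404.96, 291.51 and 326.21 FPKM with NaCl, 55.51, 46.41 and 30.61 FPKM with spermidine and 23.89, 35.37 and 27.64 FPKM in untreated roots. OsABA8ox1-b (Cluster-52034.80315) had 82.77, 36.69 and 37.45 FPKM with spermidine+NaCl, 324.61, 276.03 and 267.44 FPKM with NaCl, 46.77, 47.88 and 35.94 FPKM with spermidine and 26.16, 33.55 and 24.17 FPKM in untreated roots.

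For these 2 unigenes every NaCl library was far above every other library. The level of OsABA8ox1-a over that of OsABA8ox1-b stayed between 0.852 and 1.25 in the 12 libraries. With spermidine+NaCl, replicate 1 was high for both unigenes and the other 2 libraries were close together, yet all 3 were above the untreated libraries. For OsABA8ox1-a the margin was small, at 35.83 against 35.37 FPKM. The ratio of group means with NaCl over untreated roots was 11.8 for OsABA8ox1-a and 10.3 for OsABA8ox1-b.

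On the log2(FPKM + 1) scale, the change with NaCl against untreated roots was 3.52 ± 0.34 for OsABA8ox1-a (limma, adjusted p = 5.83e-05) and 3.33 ± 0.28 for OsABA8ox1-b (adjusted p = 2.3e-05). Both were called lower with spermidine+NaCl against NaCl, with changes of -2.73 ± 0.34 (adjusted p = 0.000467) and -2.55 ± 0.28 (adjusted p = 0.000207). The same changes were -3.16 and -2.93 without spermidine+NaCl replicate 1, both called. The unadjusted p of spermidine+NaCl against untreated roots was 0.0434 for OsABA8ox1-a and 0.0168 for OsABA8ox1-b, and neither was called (adjusted p = 0.242 and 0.146). Leaving out spermidine+NaCl replicate 1 lowered these changes from 0.78 to 0.36 (limma, adjusted p = 0.4995) and from 0.79 to 0.41 (adjusted p = 0.208).

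The 3 lesser OsABA8ox1 unigenes spread more widely between replicates. OsABA8ox1-c (Cluster-52034.80321) had 27.56, 4.43 and 4.83 FPKM with spermidine+NaCl, 46.1, 44.91 and 50 FPKM with NaCl, 16.28, 12.67 and 2.43 FPKM with spermidine and 3.08, 2.15 and 4.55 FPKM in untreated roots. OsABA8ox1-d (Cluster-52034.86650) had 11.38, 0.84 and 2.46 FPKM with spermidine+NaCl, 14.17, 12.46 and 13.32 FPKM with NaCl, 6.79, 5.94 and 1.45 FPKM with spermidine and 0.86, 2.2 and 0.64 FPKM in untreated roots. OsABA8ox1-e (Cluster-52034.82863) had 4.19, 0 and 0.17 FPKM with spermidine+NaCl, 3, 3.79 and 0.69 FPKM with NaCl, 0.83, 0.25 and 0.64 FPKM with spermidine and 0.4, 0.17 and 0.59 FPKM in untreated roots.

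For OsABA8ox1-c and OsABA8ox1-d the NaCl libraries were still above all others, but spermidine+NaCl replicate 1 and spermidine replicates 1 and 2 were well above the remaining libraries of their groups. For OsABA8ox1-e replicate 1 of spermidine+NaCl was the highest of all 12 libraries. Unigenes c, d and e together made up 19.9%, 6.58% and 9.24% of the OsABA8ox1 sum with spermidine+NaCl, 7.98%, 9.73% and 9.73% with NaCl, 18.9%, 16.7% and 6.36% with spermidine and 7.98%, 6.15% and 10.04% in untreated roots. With NaCl against untreated roots, OsABA8ox1-c changed by 3.53 ± 0.69 (limma, adjusted p = 0.00425) and OsABA8ox1-d by 2.74 ± 0.64 (adjusted p = 0.0111), while OsABA8ox1-e, at 1.21 ± 0.61, was not called (adjusted p = 0.193).

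The comparison of spermidine+NaCl with NaCl was less settled for these 3 unigenes. OsABA8ox1-c fell by 2.31 ± 0.69 (limma, adjusted p = 0.0469). It missed the threshold under 14 of 20 alternatives, with adjusted p of 0.0545 to 0.168; these include leaving out spermidine+NaCl replicate 2 or 3, any NaCl library, any untreated library, or spermidine replicate 1 or 2. OsABA8ox1-d and OsABA8ox1-e changed by -1.74 ± 0.64 (adjusted p = 0.097) and -0.80 ± 0.61 (adjusted p = 0.421), neither called. When spermidine+NaCl replicate 1 was left out, all 3 were called lower, at -3.09 (adjusted p = 0.00683), -2.50 (adjusted p = 0.0101) and -1.56 (adjusted p = 0.0423). OsABA8ox1-e passed the filter only through the NaCl libraries, so its comparison with them is not independent of the filter.

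OsABA8ox2 was highest in untreated roots by the mean of each of its 3 unigenes, and none was called with NaCl. OsABA8ox2-a (Cluster-52034.65762) averaged 10.1 ± 4.12 FPKM with spermidine+NaCl, 9.26 ± 2.73 with NaCl, 9.44 ± 0.422 with spermidine and 14.2 ± 5.36 in untreated roots, where the groups overlapped. OsABA8ox2-b (Cluster-52034.48440) had 8.37, 6.47 and 5.46 FPKM with spermidine+NaCl, 8.69, 7.02 and 8.2 FPKM with NaCl, 9.58, 7.15 and 9.17 FPKM with spermidine and 11.24, 10.83 and 10.47 FPKM in untreated roots. OsABA8ox2-c (Cluster-52034.86900) averaged 5.81 ± 1.01, 5.53 ± 0.676, 6.39 ± 0.203 and 7.72 ± 1.07 FPKM in the same order.

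For OsABA8ox2-b all untreated libraries were above every other library, and for OsABA8ox2-c they were above every other library too. With NaCl against untreated roots the changes of the 3 unigenes were -0.53 ± 0.33, -0.41 ± 0.15 and -0.41 ± 0.14 (limma, adjusted p = 0.314, 0.0862 and 0.0593). OsABA8ox2-b was the only member called with spermidine+NaCl against untreated roots, where limma called 5.37% of all unigenes, 2.38% higher and 2.99% lower (with Oryza hits only, 2.71% higher and 1.96% lower), and 6 members had an unadjusted p below 0.05. It fell by 0.63 ± 0.15 (adjusted p = 0.0434). That call was lost under 12 of 20 alternatives, with adjusted p of 0.0522 to 0.137; these include leaving out spermidine+NaCl replicate 2 or 3, any NaCl library, spermidine replicate 1 or 3, or any untreated library. Without spermidine+NaCl replicate 1 it was -0.77 (adjusted p = 0.0206).

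CYP707A1-like-a (Cluster-52034.70025), whose Swiss-Prot hit is the Arabidopsis CYP707A1, was the only member called lower with NaCl. It had 9.44, 9.27 and 10.25 FPKM with NaCl, against 18.84, 17.48 and 20.43 FPKM in untreated roots. It had 11.02, 17.76 and 17.11 FPKM with spermidine+NaCl and 20.34, 16.2 and 20.14 FPKM with spermidine. The NaCl libraries were the lowest of the 12, and replicate 1 was the lowest with spermidine+NaCl.

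The change of CYP707A1-like-a with NaCl against untreated roots was -0.90 ± 0.16 (limma, adjusted p = 0.00296). It was called higher with spermidine+NaCl against NaCl, at 0.59 ± 0.16 (adjusted p = 0.037). This call was lost under 11 of 20 alternatives, with adjusted p of 0.0507 to 0.14; these include median-ratio scaling and leaving out spermidine+NaCl replicate 2 or 3, any NaCl library, or untreated replicate 1 or 2. Without spermidine+NaCl replicate 1 the change was 0.79 (adjusted p = 0.00177).

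The other 2 members with an Arabidopsis hit above the filter were not called in any comparison. CYP707A1-like-b (Cluster-52034.52990) averaged 8.35 ± 2.01 FPKM with spermidine+NaCl, 9.75 ± 3.19 with NaCl, 10.6 ± 2.07 with spermidine and 12.8 ± 2.3 in untreated roots. CYP707A4-like (Cluster-52034.87769) averaged 2.78 ± 1.08, 2.91 ± 0.103, 2.92 ± 0.805 and 3.69 ± 0.621 FPKM in the same order. Their changes with NaCl against untreated roots were -0.40 ± 0.25 (limma, adjusted p = 0.306) and -0.25 ± 0.22 (adjusted p = 0.479).

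**Figure D2:**
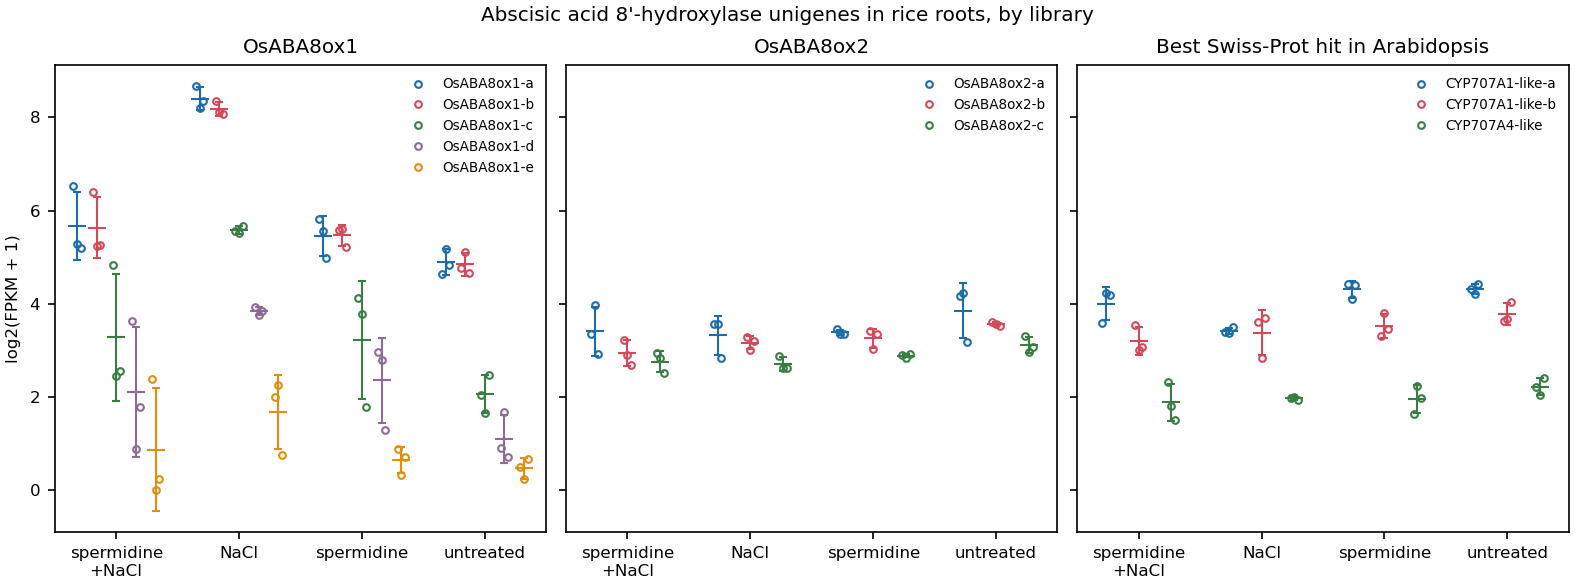
log2(FPKM + 1) of the 8'-hydroxylase unigenes above the filter in each library, by group; points are libraries, and the dash with its bar is the mean ± SD of 3 libraries on that scale. The NaCl libraries stand highest for OsABA8ox1-a to OsABA8ox1-d and lowest for CYP707A1-like-a, and the spermidine+NaCl libraries of OsABA8ox1 include 1 high library, replicate 1.

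Spermidine alone left no member past the threshold. With spermidine against untreated roots limma called 0 of the 30 members (21 tested), against 2.55% of all unigenes tested (2.05% higher, 0.509% lower), and 1 member had an unadjusted p below 0.05. Fitting only unigenes with an Oryza hit, the class the members belong to, called 16 of 41491 (0.0386%), so a count of 0 does not set the members apart. The member below 0.05 was OsABA8ox1-b, whose 3 spermidine libraries were all above the untreated ones, with a change of 0.62 ± 0.28 (unadjusted p = 0.047, adjusted p = 0.375). OsABA8ox1-a changed by 0.57 ± 0.34 (adjusted p = 0.563) and OsNCED4-a by 0.55 ± 0.34 (adjusted p = 0.588), with groups that overlapped. With spermidine+NaCl against spermidine, which is the response to salt when spermidine is present, limma also called 0 of the 30 (21 tested). Of all unigenes tested 6.93% were called (2.60% higher, 4.33% lower), and with Oryza hits only 5.02% (3.16% higher, 1.86% lower). Of the members, 2 had an unadjusted p below 0.05. These were ZEP-like, at 0.74 ± 0.27 (adjusted p = 0.146), and OsNCED3-c, which was listed at 0 in the spermidine libraries (adjusted p = 0.148).

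The interaction takes the change with spermidine in the presence of NaCl and subtracts that in its absence. It asks whether the change with spermidine differs with salt. The interaction was called for 7 of the 30 members (21 tested), all with a negative difference. Of all unigenes tested 10.9% were called (4.18% higher, 6.68% lower), and with Oryza hits only 14.4% (6.84% higher, 7.54% lower). The median difference over all unigenes was 0.163, or 0.012 with median-ratio scaling, which also moved the share of calls that were higher to 22.0% (38.5% as deposited). For OsNCED4-b the difference was -4.70 ± 0.36 (limma, adjusted p = 8.84e-05), a change of -4.37 with spermidine under NaCl less one of 0.32 without NaCl. OsNCED4-a had -4.65 ± 0.48 (adjusted p = 0.000359), OsABA8ox1-a -3.30 ± 0.48 (adjusted p = 0.00208) and OsABA8ox1-b -3.17 ± 0.39 (adjusted p = 0.000883). In untreated roots OsNCED4-a averaged 0.05 FPKM, OsNCED4-b 0.153 FPKM and OsNCED3-b 0.403 FPKM, so a fall with spermidine could hardly show there. The differences of these unigenes therefore largely repeat their changes with spermidine+NaCl against NaCl.

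OsNCED3-b had a difference of -2.15 ± 0.39 (limma, adjusted p = 0.0065) and OsNCED3-c of -1.63 ± 0.35 (adjusted p = 0.0157); OsNCED3-c was listed at 0 in the libraries without NaCl, and its call was lost with a pseudocount of 0.1 FPKM (adjusted p = 0.0598). OsABA8ox1-c had -3.48 ± 0.97 (adjusted p = 0.0472), which missed the threshold under 13 of 19 alternatives (adjusted p of 0.0574 to 0.116), among them leaving out any single library but spermidine+NaCl replicate 1 or spermidine replicate 3. The differences of OsNCED3-a (-1.76 ± 0.51, adjusted p = 0.0533) and OsABA8ox1-d (-2.99 ± 0.91, adjusted p = 0.0631) were not called. Without spermidine+NaCl replicate 1, 10 members were called, with OsNCED3-a at -2.09 (adjusted p = 0.0183), OsABA8ox1-d at -3.76 (adjusted p = 0.0074) and CYP707A1-like-a at 0.80 (adjusted p = 0.0106) added. Over all 65836 unigenes tested, the interaction was called for 7498 in that fit, against 7152 with all libraries.

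**Figure D3:**
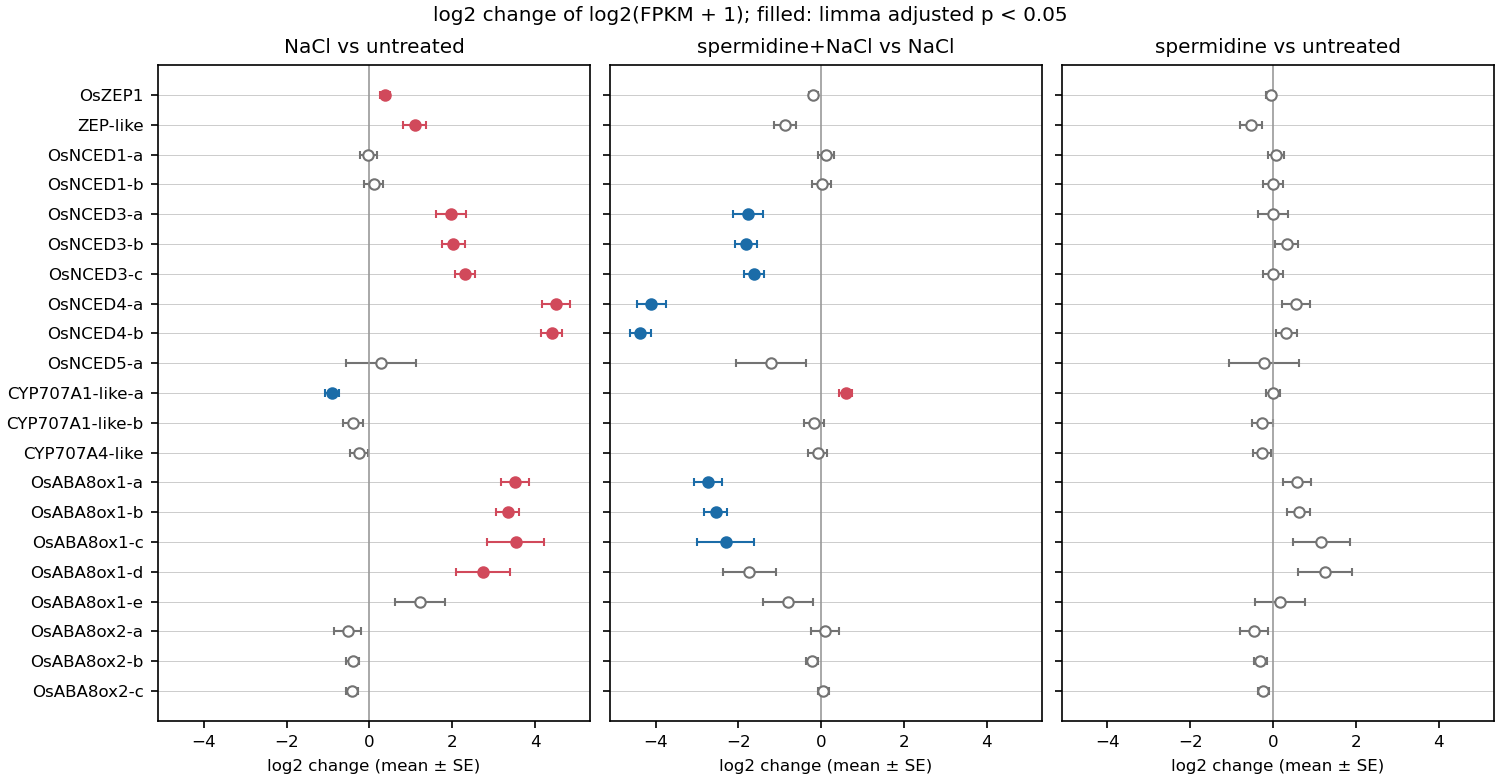
Changes of the 21 tested members on the log2(FPKM + 1) scale, as mean ± SE from limma, for NaCl against untreated roots, spermidine+NaCl against NaCl and spermidine against untreated roots; filled points were called (red higher, blue lower) and open points were not. OsNCED4 has the largest changes in the first 2 panels, and no point is filled in the last.

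Summed over unigenes, both sides of the hormone's metabolism were highest with NaCl. FPKM are per kilobase, so pieces of 1 transcript would each be counted in full. The sums, and the shares, ratios and orders of genes made from them, therefore depend on how many unigenes a gene was split into. The 12 NCED unigenes summed to 15.51, 12.56 and 12.43 FPKM with spermidine+NaCl, 75.52, 69.86 and 74.97 FPKM with NaCl, 14.58, 12.57 and 13.8 FPKM with spermidine and 13.01, 14.45 and 7.98 FPKM in untreated roots. The 16 hydroxylase unigenes summed to 269.8, 135.37 and 124.38 FPKM with spermidine+NaCl, 842.81, 671.32 and 704.44 FPKM with NaCl, 187.71, 170.7 and 130.81 FPKM with spermidine and 127.4, 145.8 and 126.73 FPKM in untreated roots. Within each sum the NaCl libraries did not overlap any other group, and the other 3 groups overlapped each other. Without replicate 1 the hydroxylase sum with spermidine+NaCl averaged 130 FPKM, against 177 FPKM with it. The 9 unigenes with the KEGG term for the enzyme averaged 148 ± 80.1 FPKM with spermidine+NaCl, 716 ± 90 with NaCl, 128 ± 29.4 with spermidine and 94.5 ± 12.9 in untreated roots, and the other 7 averaged 28.02 ± 0.986, 23.7 ± 3.88, 34.7 ± 0.387 and 38.8 ± 3.93 FPKM.

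Which genes made up the sums also differed with salt. OsNCED3 and OsNCED4 held 19.5% ± 10.9 of the NCED sum with spermidine+NaCl, 81.9% ± 4.03 with NaCl, 17.7% ± 11.8 with spermidine and 9.92% ± 2.82 in untreated roots. Without replicate 1 the share was 13.2% with spermidine+NaCl and 11.9% with spermidine. OsABA8ox1 held 68.1% ± 10.9 of the hydroxylase sum with spermidine+NaCl, 93.7% ± 0.358 with NaCl, 62.6% ± 7.19 with spermidine and 46.2% ± 3.89 in untreated roots. Within the 9 unigenes with that KEGG term its share was 82.5% ± 7.65, 96.8% ± 0.33, 79.9% ± 5.1 and 65.4% ± 5.11 in the same order. OsABA8ox2 summed to 22.7 ± 5.42, 22.8 ± 3.19, 24.5 ± 1.75 and 32.7 ± 6 FPKM in the same order. The hydroxylase sum over the NCED sum was 12.7 ± 4.06 with spermidine+NaCl, 10.1 ± 0.963 with NaCl, 11.98 ± 2.19 with spermidine and 11.9 ± 3.43 in untreated roots, and the 4 groups overlapped in this ratio. With only the 9 unigenes it was 10.6 ± 4.25, 9.73 ± 0.97, 9.42 ± 2.14 and 8.34 ± 1.85.

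**Figure D4:**
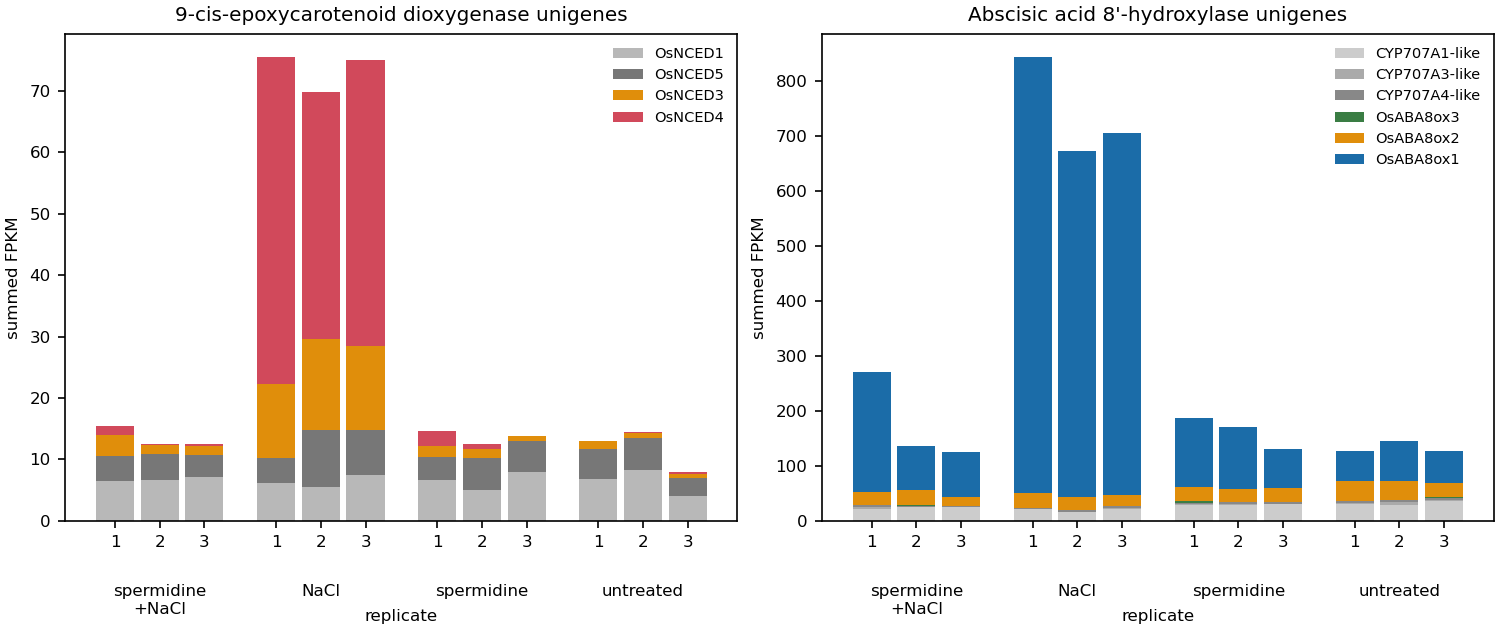
Summed FPKM of the NCED and 8'-hydroxylase unigenes in each library, stacked by gene. Each bar is 1 library. The NaCl libraries reach 69.9 to 75.5 FPKM for NCED and 671 to 843 FPKM for the hydroxylases, with OsNCED4 and OsABA8ox1 as the tallest parts.

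Ordered by their mean with NaCl, the NCED genes as sums of their unigenes ran from OsNCED4 (46.7 ± 6.46 FPKM) over OsNCED3 (13.6 ± 1.36) to OsNCED5 (6.83 ± 2.63) and OsNCED1 (6.40 ± 0.943); OsNCED5 and OsNCED1 did not differ beyond their spread. In untreated roots the order was OsNCED1 (6.41 ± 2.15 FPKM), OsNCED5 (4.29 ± 1.22), OsNCED3 (0.91 ± 0.325) and OsNCED4 (0.203 ± 0.136), where again OsNCED1 and OsNCED5 did not differ beyond their spread. With spermidine+NaCl OsNCED1 led at 6.80 ± 0.358 FPKM, and OsNCED4 was lowest at 0.633 ± 0.717 (0.22 without replicate 1). With spermidine OsNCED1 led at 6.52 ± 1.49 FPKM and OsNCED4, at 1.12 ± 1.2 (0.475 without replicate 1), and OsNCED3, at 1.32 ± 0.554, did not differ beyond their spread. Of the hydroxylases, OsABA8ox1 led in every group, with 126 ± 78.7 FPKM with spermidine+NaCl (80.4 without replicate 1), 693 ± 87.6 with NaCl, 103 ± 28.8 with spermidine and 61.8 ± 10.2 in untreated roots. Its sum holds 5 unigenes and that of OsABA8ox2 holds 3. OsABA8ox2 and the 2 CYP707A1-like unigenes followed, and their sums overlapped with NaCl (22.8 ± 3.19 and 19.4 ± 3.59 FPKM), in untreated roots (32.7 ± 6 and 31.7 ± 3.64 FPKM), and with spermidine+NaCl (22.7 ± 5.42 and 23.6 ± 1.71 FPKM). With spermidine they did not overlap, the CYP707A1-like sum being the higher (24.5 ± 1.75 and 29.5 ± 0.555 FPKM). OsABA8ox3 summed to 0.42 ± 0.22 FPKM with spermidine+NaCl, 0.45 ± 0.423 with NaCl, 1.57 ± 0.666 with spermidine and 0.483 ± 0.495 in untreated roots, the lowest of the hydroxylase genes with a rice hit.

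Other genes of the pathway were taken by words in their descriptions, among unigenes with an Oryza hit. With Oryza hits only, 13.4% were called higher and 17.0% lower with NaCl against untreated roots. With spermidine+NaCl against NaCl, these shares were 13.2% and 9.63%. Of 27 tested unigenes for carotenoid precursor enzymes (46 matched), 5 were called higher and 0 lower with NaCl against untreated roots, and 0 higher and 3 lower with spermidine+NaCl against NaCl. These are smaller shares than the 22.9% and 15.8% of all unigenes called in either direction. All calls within a comparison went the same way, and by direction the shares were larger than over all unigenes. There 10% were called higher with NaCl and 7.18% lower with spermidine+NaCl against NaCl. Beside the 9.63% called lower with Oryza hits only, the 3 of 27 were near the share. Phytoene synthase (Cluster-52034.100088), which makes the first carotenoid, had 0.983 ± 0.294 FPKM with spermidine+NaCl, 6.71 ± 1.07 with NaCl, 0.41 ± 0.217 with spermidine and 0.56 ± 0.202 in untreated roots, a change of 2.30 ± 0.21 with NaCl (limma, adjusted p = 4.35e-05) and of -1.96 ± 0.21 with spermidine+NaCl against NaCl (adjusted p = 0.000205). The phytoene synthase unigene passed the filter only through the NaCl libraries, so its changes against them are not independent of the filter. Prolycopene isomerase (Cluster-52034.96628), a later carotenoid enzyme, changed by 0.67 ± 0.17 (adjusted p = 0.0144) and -0.95 ± 0.17 (adjusted p = 0.00343) in the same comparisons.

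Of 20 tested unigenes for the late steps (31 matched), 2 were called higher and 3 lower with NaCl, and 2 higher and 0 lower with spermidine+NaCl against NaCl. This is near or below the 22.9% and 15.8% of all unigenes called in either direction. A unigene described as probable aldehyde oxidase 2 (Cluster-52034.70818), a relative of the last enzyme of synthesis, averaged 27.9 ± 1.62 FPKM with NaCl, against 19.9 ± 3.09 FPKM in untreated roots (limma, adjusted p = 0.0222), and 27.0 ± 3.32 FPKM with spermidine+NaCl. A molybdenum cofactor sulfurase (Cluster-52034.57864), of the family that activates aldehyde oxidases, averaged 17.9 ± 1.74 FPKM with spermidine+NaCl, 10.8 ± 1.27 with NaCl, 17.6 ± 2.26 with spermidine and 18.4 ± 0.794 in untreated roots. It was called lower with NaCl (adjusted p = 0.00175) and higher with spermidine+NaCl against NaCl (adjusted p = 0.00384). Among 4 tested unigenes for carotenoid cleavage outside this pathway, 1 for carotenoid cleavage dioxygenase 7, of strigolactone synthesis, was called lower with NaCl (-0.35 ± 0.10, adjusted p = 0.0292).

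Downstream of the hormone, limma called 0 of 11 tested receptor unigenes higher with NaCl and 7 lower, and 5 higher and 0 lower with spermidine+NaCl against NaCl, beside 12.9% of all unigenes lower with NaCl and 8.63% higher in the other comparison. A receptor described as PYL4 (Cluster-52034.25419) averaged 4.34 ± 2.4 FPKM with spermidine+NaCl, 0.71 ± 0.425 with NaCl, 9.64 ± 1.38 with spermidine and 11.3 ± 1.4 in untreated roots. Of 193 tested protein phosphatases 2C, a family that holds negative regulators of abscisic acid signalling, 53 were called higher and 31 lower with NaCl, and 19 higher and 44 lower with spermidine+NaCl against NaCl, beside 10% of all unigenes higher with NaCl and 7.18% lower in the other comparison. A unigene for protein phosphatase 2C 77 (Cluster-52034.99113) averaged 3.10 ± 1.08 FPKM with spermidine+NaCl, 120 ± 14.0 with NaCl, 4.38 ± 3.63 with spermidine and 1.35 ± 1.8 in untreated roots. It was called in both comparisons (limma, adjusted p = 0.000102 and 0.000557).

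The SAPK kinases, which act between phosphatases and transcription factors, had 5 higher and 5 lower of 22 tested with NaCl, and 3 higher and 5 lower with spermidine+NaCl against NaCl. Over all unigenes 22.9% were called with NaCl (10% higher, 12.9% lower) and 15.8% in the other comparison (8.63% higher, 7.18% lower). A SAPK2 unigene (Cluster-52034.52438) averaged 3.55 ± 2.02 FPKM with spermidine+NaCl, 24.4 ± 0.781 with NaCl, 3.03 ± 0.815 with spermidine and 2.45 ± 0.274 in untreated roots. The bZIP factors of the response had 7 higher and 1 lower of 23, and 1 higher and 6 lower, in these comparisons. Of 18 LEA and dehydrin unigenes, whose proteins protect cells during drying, 7 were higher and 1 lower, and 0 higher and 7 lower. Transport and conjugation of the hormone had 0 higher and 4 lower of 16, and 1 higher and 0 lower. In either direction this was near or below the shares called over all unigenes (22.9% and 15.8%). The share called lower with NaCl was above the 12.9% of all unigenes called lower, and less far above the 17.0% with Oryza hits only.

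The genes most like the leading members over the 12 libraries were found by Pearson's r of log2(FPKM + 1), among unigenes with an Oryza hit, a mean of at least 5 FPKM and an informative description. All 12 libraries enter each r, and the contrast of the NaCl libraries with the rest sets much of it. Nearest to OsNCED4-b were unigenes described as DREB1F (r = 0.995), a dehydration-responsive element-binding factor, glutathione S-transferase TCHQD (r = 0.9945) and the subtilisin-like protease SBT3.6 (r = 0.9942). Each of these reached a mean of 5 FPKM only through the NaCl libraries, so their likeness to OsNCED4-b is not independent of that requirement. Outside NaCl the group means were 4.15 to 5.41 FPKM for TCHQD and 0.173 to 0.32 FPKM for SBT3.6. DREB1F averaged 21.1 ± 3.7 FPKM with NaCl and 0.193 ± 0.269 FPKM with spermidine, and was listed at 0 in every library of the other 2 groups. Nearest to OsABA8ox1-a were unigenes described as the transcription factors MYB4 (r = 0.9973) and WRKY6 (r = 0.9962), and phosphatidylinositol 4-kinase gamma 4 (r = 0.9955). The Oryza hit of the WRKY unigene is named probable WRKY transcription factor 31. MYB4 averaged 97.9 ± 54.7 FPKM with spermidine+NaCl, 754 ± 117 with NaCl, 75.3 ± 25.1 with spermidine and 46.1 ± 8.45 in untreated roots.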

How the data were processed

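Poly-A RNA of 12 rice root libraries was analysed from a single deposited table of FPKM values, made by the authors, for 182689 unigenes with their protein hits. RSEM, Bowtie2 and CASAVA 1.8 are named in the submitters' processing notes, without their roles. How the transcripts were assembled and filtered, and whether strand was used, is not given in the sources used here. Read counts cannot be had from FPKM, so depth is unknown and counting intervals are not given. The deposited values summed to 1.31e+06 to 1.37e+06 FPKM per library, low values gave relative depths of 0.919 to 1.09, and 101814 to 125638 unigenes were above 0. Correlation of log2 values within groups was 0.85 to 0.929. An exact 0 can be a failed estimate, so such values are given as listed at 0. Multigene families and unigenes of the same gene can share reads.

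Members were found by words in the protein descriptions. The log2(FPKM + 1) of unigenes averaging 1 FPKM or more was fitted with 4 group means in limma 3.58.1 (R 4.3.3), with empirical Bayes variances following the mean. The fit gave 5 comparisons and the interaction, two-sided, with Benjamini-Hochberg adjustment within each and calls at an adjusted p below 0.05. The steps were tested on simulated data. Sums of FPKM are descriptions, with no test. The 20 alternatives were a pseudocount of 0.1 FPKM, no filter, a filter at 5 FPKM, 2 other normalizations, unigenes with an Oryza hit only, a replicate block, only the groups compared, and leaving out each of the 12 libraries.

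The members and lists were chosen with earlier results of these data known. Members above the filter were described singly, in the order of the pathway. From each pathway list the rule took at most 2 called unigenes in each direction, those with the largest change with NaCl among unigenes reaching 5 FPKM in a group, and the text names a part of these, chosen after their values were seen. For likeness it took the 3 unigenes with the highest r to the NCED and to the hydroxylase unigene with the highest group mean. No positions are given, because no source used here names the build behind the table, and no sequences were used here.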

Additional observations from a re-analysis of the deposited data

Results flagged for a closer look

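The change with spermidine under NaCl differed from the change with spermidine without NaCl in 7 members (limma interaction, adjusted p below 0.05), which is why each is listed here, with the difference on the log2(FPKM + 1) scale. OsNCED4-b had a difference of -4.70 (adjusted p = 8.84e-05). OsNCED4-a had -4.65 (adjusted p = 0.000359). OsABA8ox1-c had -3.48 (adjusted p = 0.0472), with spermidine+NaCl replicate 1 at 27.56 FPKM beside 4.43 and 4.83 FPKM in the other 2 libraries of its group. OsABA8ox1-a had -3.30 (adjusted p = 0.00208) and OsABA8ox1-b -3.17 (adjusted p = 0.000883). OsNCED3-b had -2.15 (adjusted p = 0.0065). OsNCED3-c had -1.63 (adjusted p = 0.0157), and its spermidine and untreated libraries were all listed at 0, so this equals its change with spermidine+NaCl against NaCl. OsNCED4-a, OsNCED4-b and OsNCED3-b averaged 0.05 to 0.403 FPKM in untreated roots, so a fall with spermidine could hardly show there. The NaCl libraries enter each of these values, and no cause was tested.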

How the results depend on the processing

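Of 29 called changes of members, 21 kept their call and direction under each of the 20 alternatives that could be fitted, 8 lost the call under at least 1, and 0 turned direction. The interaction could not be fitted to only the groups compared, and OsNCED3 and ZEP-like fell below the filter at 5 FPKM. Across alternatives, 8 to 13 members were called with NaCl against untreated roots, 6 to 11 with spermidine+NaCl against NaCl and 5 to 10 in the interaction. With spermidine+NaCl against untreated roots, 1 member was called, and this became 2 with a pseudocount of 0.1 FPKM, 0 with no filter, 0 with only the groups compared and 0 to 1 when single libraries were left out. With spermidine+NaCl against spermidine, 0 became 1 with a pseudocount of 0.1 FPKM. Zeaxanthin epoxidase sums moved by more than 1 SD to 8.06 FPKM with spermidine+NaCl under median-ratio scaling, and to 13.0 FPKM with NaCl and 5.61 FPKM with spermidine under quantile normalization. The NCED sum with NaCl moved to 78.3 FPKM under median-ratio scaling and 76.7 FPKM under quantile normalization, and that with spermidine to 11.3 FPKM under quantile normalization. The cause was not tested.

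Libraries with the same replicate number had correlations of their deviations of -0.127 to 0.111 across unigenes, so the numbers were not taken to pair the samples. Among the 11 members called higher with NaCl, replicate 1 was the highest of its group in 8 with spermidine+NaCl, 5 with NaCl, 7 with spermidine and 4 in untreated roots. With the number as a replicate block, 12 members were called with NaCl against untreated roots (OsZEP1 lost its call, adjusted p = 0.052, and OsABA8ox2-c gained it, adjusted p = 0.0456), 10 with spermidine+NaCl against NaCl (ZEP-like added, adjusted p = 0.0352) and 7 in the interaction. Of all 65836 unigenes tested, the fit with the block called 14155, 9700 and 6113 in the same order. Unknown depth and 3 libraries a group limit what can be said of members near 1 FPKM.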
